A study of Mus musculus with 20 samples.

Results

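The genes described here are the collagens, laminins and integrins together with 10 further matrix, tendon and connective tissue genes (Fn1, Tnc, Lum, Dcn, Dpt, Chad, Ibsp, Scx, Angptl7 and Pdgfra), measured in mouse dorsal root ganglia after a sciatic nerve lesion. Members were chosen by symbol: every gene named as a collagen chain, every laminin alpha, beta or gamma chain, and every symbol opening with Itga or Itgb, plus the 10 named genes. This gave 96 of the 78258 genes in the count table, of which 44 were collagens, 11 laminins and 31 integrin-type symbols. Among the integrin-type symbols, Itgb1bp1, Itgb1bp2 and Itgb3bp encode proteins named for binding integrin beta chains, and Itgbl1 one named for likeness to a beta chain. None of these is an integrin. All 96 passed the filter on low counts, which left 28564 genes for testing.

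Ganglia of lumbar levels L4 to L6 were taken from 10 male mice, 5 cKO and 5 control, with 1 library from each side of each mouse and thus 4 groups of 5 libraries. The cKO contralateral library taken here as that of mouse H61 has H6 in its title and H61 in its library name, so the H61 pairing rests on the library name. The cKO mice were Ahr fl/fl and carried Thy1CRE-ERT2/EYFP, a tamoxifen-inducible Cre driven by the Thy1 promoter, a promoter used to target neurons. Controls were described as Ahr f/f or f/+. Every control library name carries ff, while the sample titles call these mice Wildtype, so which controls, if any, were f/+ is not known. Both genotypes received tamoxifen at 100 mg/kg daily for 5 days at 17 weeks of age, and the sciatic nerve was cut 4 weeks later, so that the contralateral ganglia also came from lesioned, tamoxifen-treated mice. All 20 libraries were taken 1 day after the lesion. The sample labels call the treatment a spinal cord injury, whereas the protocol describes a sciatic transection. The study asked how the aryl hydrocarbon receptor, a ligand-activated transcription factor encoded by Ahr, bears on the regeneration of these neurons.

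Collagens are trimers that form fibrils (types I, III and V), the mesh of basement membranes (type IV) or beaded filaments (type VI), and laminins are cross-shaped trimers of an alpha, a beta and a gamma chain laid down in basement membranes. Integrins are paired alpha and beta chains in the cell membrane that hold cells to these ligands and signal to the cytoskeleton. In a ganglion, satellite glia, Schwann cells and vessels sit on basement membranes, fibroblasts fill the capsule and the endoneurium, and sensory neurons carry laminin-binding integrins that support axon growth.

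Total counts ranged from 76150333 to 118537209 a library, of which the members took 0.272% to 0.554%. Markers of sensory neurons were high in every library, with a mean log2 CPM (counts as a rate of the library total, scaled by TMM factors) over 16 genes of 9.22 to 9.45. Ahr itself, counted over the whole gene and not over the floxed part, stood at 21.3 to 27.2 CPM in control and 19.5 to 21 CPM in cKO contralateral libraries, a log2 difference of -0.25 with an adjusted p of 0.103. On the ipsilateral side it stood at 30.2 to 38.1 CPM in control and 28.9 to 36.8 CPM in cKO.

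Some libraries stood apart in markers of connective tissue, none of which are members. The fibroblast marker score, the mean log2 CPM of 10 genes such as Pi16, Dpp4 and Clec3b, was 4.38, 3.95, 3.52, 3.30 and 3.53 in the contralateral libraries of control mice H62, H63, H65, H96 and H97, and 4.33, 4.33, 4.02, 3.96 and 4.5 in their ipsilateral libraries. In cKO mice H61, H64, H95, H99 and H100 it was 4.41, 5.40, 5.30, 3.75 and 5.29 contralaterally and 4.13, 4.41, 4.35, 4.13 and 4.83 ipsilaterally. The contralateral libraries of cKO mice H64, H95 and H100 therefore lay above every ipsilateral library of either genotype. The summed level of the 10 genes ran from 206 to 331 CPM in control contralateral, 252 to 358 in control ipsilateral, 244 to 640.3 in cKO contralateral and 278 to 417 in cKO ipsilateral libraries. A cartilage and bone score of 13 genes, of which 9 were tested, was high in the contralateral libraries of H62 at 2.45 and H95 at 3.03 and in the ipsilateral library of H96 at 2.22, followed by H99 contralateral at 1.71, while the other ipsilateral libraries lay between -0.019 and 0.70. Within this list the chondrocyte genes Matn1 and Matn3 were at 0 counts in 8 of 20 libraries each and the osteocyte gene Mepe in 15. The tendon list of 7 genes summed to 41.1 to 71.4 CPM, 47.4 to 58.9 CPM, 49.0 to 211 CPM and 49.6 to 92.5 CPM in the same order of groups, with Tnmd detected in every library at no more than 1.54 CPM and Kera at 0 in 8 libraries. Responses to the lesion that rest on these libraries are given with and without H62 contralateral, H96 ipsilateral and H64, H95 and H100 contralateral. These 5 libraries were chosen after the data were seen. Each had a fibroblast score above every ipsilateral library or a cartilage and bone score over 2. The first part of this rule can remove contralateral libraries only. In cKO, leaving them out lowers the contralateral level of members that follow the score, so such shifts follow in part from the rule. Without the 5 libraries the cKO contralateral group holds 2 libraries, H61 and H99.

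Per kilobase of exon, the most abundant members were the beta-1 integrin chain Itgb1 at 106 CPM per kilobase averaged over the 20 libraries and the leucine-rich proteoglycan decorin, Dcn, at 69.3. Among collagens the highest were the fibrillar chains Col1a1 at 34.7, Col1a2 at 24.8 and Col3a1 at 21.5 CPM per kilobase. The alpha chains Itga7, a laminin receptor of muscle and neurons, and Itga3, a laminin receptor of epithelia and neurons, stood at 34.7 and 22.5 CPM per kilobase. Laminins were led by the chains Lamc1 at 8.62, Lamb2 at 8.07 and Lamb1 at 7.34 CPM per kilobase. The basement membrane chains Col4a1 and Col4a2 stood at 14.8 and 10.3, the proteoglycan lumican, Lum, at 18.2 and fibronectin, Fn1, at 9.27 CPM per kilobase. Col28a1, a collagen known from peripheral nerve and named here after its level was seen, stood at 19.8. The scarcest members, such as Col7a1 and, named after their levels were seen, Col6a6 and Col4a6, were below 0.1 CPM per kilobase.

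Promoter windows from RefSeq (GRCm38.p6; 250 bases before to 50 after an annotated start) matched 68 of the 96 members in 75 windows. The windows printed here are those of the pair Col4a1 and Col4a2, which encode the paired chains of type IV collagen, the integrins Itga3 and Itgb1 and the secreted factor Angptl7, which changed with injury in both genotypes, and Col1a2, which followed the fibroblast score. The Col4a1 window is chr8:11312777-11313076 on the minus strand and the Col4a2 window chr8:11312555-11312854 on the plus strand. They share 78 bases, at the end of each window as printed, and are read toward each other. Their annotated starts lie 23 bases apart. Col1a2 is chr6:4505368-4505667 on the plus strand, the first of the Itga3 windows is chr11:95076665-95076964 on the minus strand, Itgb1 is chr8:128685404-128685703 on the plus strand and Angptl7 is chr4:148500413-148500712 on the minus strand. Capitals mark, on either strand, the AP-1 letters TGANTCA, the CCAAT box (CCAAT, or ATTGG on the other strand) and the GC box (GGGCGG, or CCGCCC).
Col4a1: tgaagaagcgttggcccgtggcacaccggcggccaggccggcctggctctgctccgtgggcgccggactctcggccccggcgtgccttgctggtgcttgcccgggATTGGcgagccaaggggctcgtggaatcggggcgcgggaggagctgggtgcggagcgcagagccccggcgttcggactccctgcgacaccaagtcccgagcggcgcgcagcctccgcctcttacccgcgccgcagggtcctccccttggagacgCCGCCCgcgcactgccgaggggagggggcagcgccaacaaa
Col4a2: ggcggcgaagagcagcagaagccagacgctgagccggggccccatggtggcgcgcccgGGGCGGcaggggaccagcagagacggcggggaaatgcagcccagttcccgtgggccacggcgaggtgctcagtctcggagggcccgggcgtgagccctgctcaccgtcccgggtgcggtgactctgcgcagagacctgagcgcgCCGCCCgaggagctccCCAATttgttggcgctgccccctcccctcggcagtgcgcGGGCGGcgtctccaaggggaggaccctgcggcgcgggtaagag
Col1a2: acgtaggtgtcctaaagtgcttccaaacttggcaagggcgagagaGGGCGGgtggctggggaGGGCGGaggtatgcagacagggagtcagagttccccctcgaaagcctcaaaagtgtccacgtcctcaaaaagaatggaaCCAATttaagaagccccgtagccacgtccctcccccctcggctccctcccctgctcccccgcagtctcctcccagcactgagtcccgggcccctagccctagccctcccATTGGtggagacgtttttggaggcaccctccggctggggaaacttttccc
Itga3: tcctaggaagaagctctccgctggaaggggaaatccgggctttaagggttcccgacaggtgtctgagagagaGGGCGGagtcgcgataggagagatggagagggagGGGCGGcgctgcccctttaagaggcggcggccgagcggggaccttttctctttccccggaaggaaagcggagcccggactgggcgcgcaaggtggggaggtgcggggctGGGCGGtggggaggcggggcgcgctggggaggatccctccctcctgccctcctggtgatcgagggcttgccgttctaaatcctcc
Itgb1: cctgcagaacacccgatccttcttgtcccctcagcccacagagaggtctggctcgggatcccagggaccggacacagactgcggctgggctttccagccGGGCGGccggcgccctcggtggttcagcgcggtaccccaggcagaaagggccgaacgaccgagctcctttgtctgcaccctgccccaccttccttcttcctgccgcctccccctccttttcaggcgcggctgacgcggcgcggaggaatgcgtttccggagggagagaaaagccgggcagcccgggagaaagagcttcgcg
Angptl7: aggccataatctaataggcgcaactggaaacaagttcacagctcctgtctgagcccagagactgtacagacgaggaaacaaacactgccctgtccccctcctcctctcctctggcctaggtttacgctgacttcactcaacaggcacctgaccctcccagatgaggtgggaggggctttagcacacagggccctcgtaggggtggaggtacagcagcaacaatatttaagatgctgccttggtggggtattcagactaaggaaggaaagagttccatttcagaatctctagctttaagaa
The GC box was found in 39 of the 75 member windows (52.0%) against 35.6% of all 32817 windows of this length, the CCAAT box in 19 (25.3%) against 37.4%, and the AP-1 letters in 4 (5.3%) against 7.8%. None of the 6 windows shown held the AP-1 letters, while a second Itga3 window held 1 match. Itga3 held 3 GC boxes, Itgb1 1 and Angptl7 none of the 3 motifs. These matches describe the letters in the window only.

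The lesion was followed by a change in 19 of the 96 members in control mice (14 higher, 5 lower) and in 29 in cKO mice (12 higher, 17 lower), at an adjusted p under 0.05 in edgeR. Over all genes tested 29.9% passed in control (13.8% higher and 16% lower) and 31.3% in cKO (16.2% higher and 15.1% lower), so that the members passed at 19.8% and 30.2%, below and near the background. The median log2 fold change of the members was 0.21 in control, against -0.0047 over all genes, and -0.11 in cKO, against -0.030. Of these members, 15 passed in both genotypes, each in the same direction, with 10 higher (Itga7, Itga3, Itgb1, Itgav, Itga2, Itgb8, Col16a1, Col6a5, Col7a1 and Lama5) and 5 lower (Scx, Angptl7, Itga4, Itgb6 and Itgb3bp). Over all genes tested, 21.4% passed in both genotypes in the same direction (11.4% higher and 9.96% lower), so that the shared members do not exceed the background. Markers of other cell types also moved between sides: the 6 perineurium markers summed to 129.8 to 159 CPM contralaterally and 202 to 233 ipsilaterally in control and 125 to 209 and 203 to 264 in cKO, with 1 of 6 called higher in each. That 1 was the glucose transporter Slc2a1, at log2 1.12 ± 0.077 in control and 1.17 ± 0.077 in cKO, and the list medians were 0.12 and -0.35. The 6 satellite glia markers summed to 704 to 763 and 846 to 919.7 CPM in control and 691 to 860.2 and 834 to 872 CPM in cKO, with 2 called higher and 1 lower in each genotype and list medians of 0.098 and -0.016. Among them Glul, glutamine synthetase, rose by 0.46 ± 0.057 and 0.30 ± 0.057, while Cadm2 fell, with signed values of -0.41 ± 0.061 and -0.30 ± 0.061 (these 3 markers were named after their values were seen). Of 8 endothelial markers, 4 were called higher in control and 1 in cKO, with medians of 0.40 and 0.078, and of 7 mural cell markers 2 and 1, with medians of 0.21 and 0.17. Of 16 sensory neuron markers, 4 were called lower in each genotype and 1 higher in cKO, with medians of -0.022 and -0.097 and sums of 14478 to 16384 and 14334 to 15926 CPM in control contralateral and ipsilateral libraries and 14212 to 16553 and 13824 to 15075 CPM in cKO. The part of these cells in the members' responses was not tested. In bulk ganglia, fewer or more cells of a type and less or more RNA per cell cannot be told apart.

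**Figure D1:**
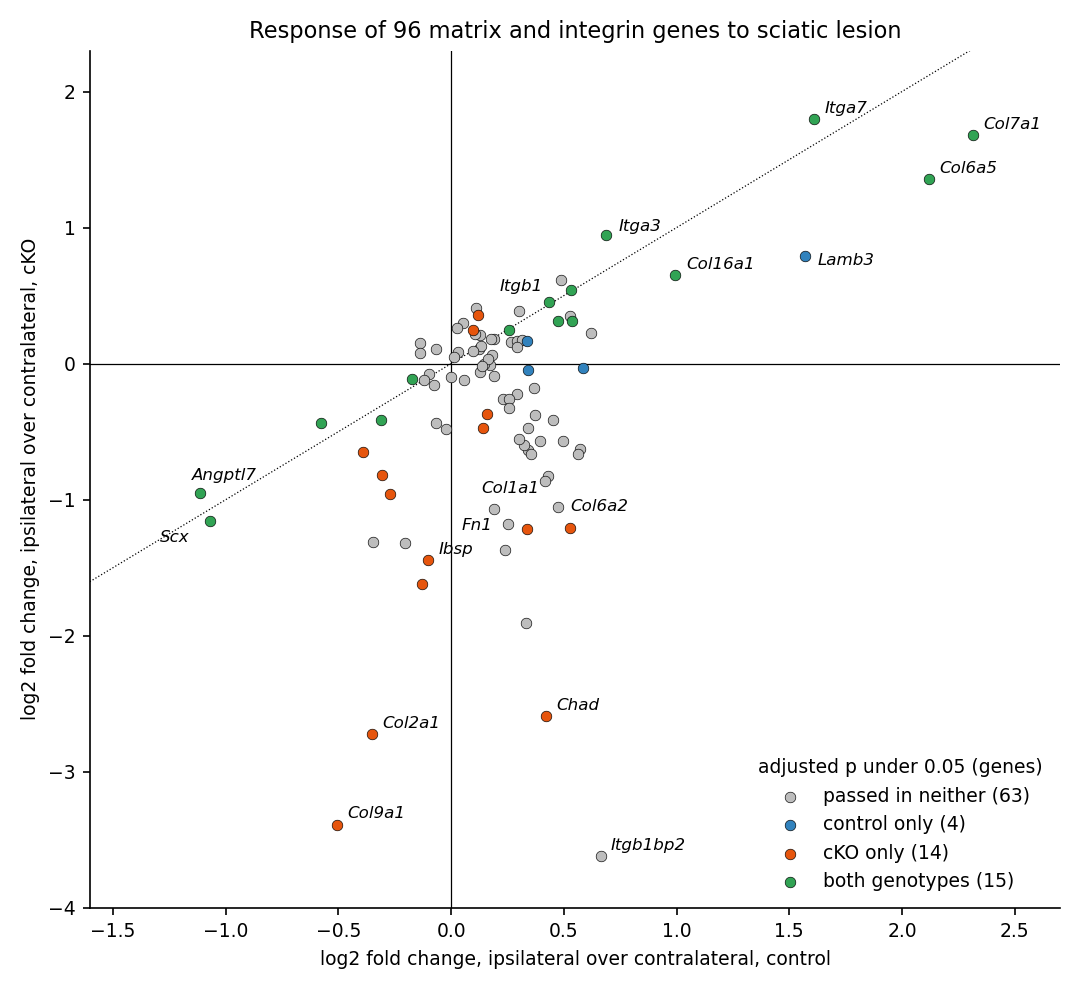
Log2 fold change of ipsilateral over contralateral ganglia for the 96 members in control (x axis) and cKO mice (y axis), coloured by the genotypes in which each passed an adjusted p under 0.05. The 15 green points have the same sign in both genotypes, while 12 of the 14 orange points (cKO only) have a negative value in cKO.

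Integrin chains gave 6 of the 10 shared increases. Of the 31 integrin-type symbols, 25.8% were called higher and 9.68% lower in control, and 19.4% and 16.1% in cKO. Over all genes these shares were 13.8% and 16% in control and 16.2% and 15.1% in cKO. Itga7 stood at 121, 140.0, 143, 149 and 149 CPM in the contralateral and 427, 462, 428, 425 and 399.7 CPM in the ipsilateral libraries of the 5 control mice, listed in the order given above. In the 5 cKO mice it stood at 121, 119.5, 117, 143 and 119 CPM contralaterally and 426, 509, 431, 387 and 398 CPM ipsilaterally. Every ipsilateral library lay above every contralateral one, and Itga7 rose 3.05-fold in control (log2 1.61 ± 0.074, SE; adjusted p 1.31e-12) and 3.47-fold in cKO (log2 1.80 ± 0.074; adjusted p 2.43e-13). Itga7 is also abundant in muscle, and the score of 10 skeletal muscle genes was 0.13 to 5.46 and -0.19 to 5.82 in control contralateral and ipsilateral libraries and -0.66 to 7.28 and -1.73 to 3.78 in cKO. The part of muscle in the Itga7 levels was not tested.

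Itga3 stood at 108, 102, 105, 92.5 and 103 CPM contralaterally and 161, 167, 164, 174 and 155 CPM ipsilaterally in control mice. In cKO mice the values were 86.3, 73.1, 84.8, 94.6 and 84.4 CPM and 145, 191, 158, 157 and 161 CPM. The sides did not overlap in either genotype, and Itga3 rose by a log2 fold change of 0.69 ± 0.066 in control (adjusted p 9.23e-08) and 0.94 ± 0.066 in cKO (adjusted p 7.53e-10). The difference between these responses was 0.25 ± 0.093, which did not pass after adjustment over all genes (adjusted p 0.485). Their shared partner Itgb1 stood at 373, 374, 377, 353 and 382 CPM contralaterally and 514, 508, 503, 519 and 469.7 CPM ipsilaterally in control mice, and at 357, 346, 372, 372 and 374 CPM and 482, 531, 492, 481 and 511 CPM in cKO mice. Itgb1 rose by 0.44 ± 0.035 in control and 0.46 ± 0.035 in cKO on the log2 scale, again with no overlap between sides.

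The collagen receptor chain Itga2 averaged 4.57 ± 0.456 CPM contralaterally and 6.61 ± 0.871 ipsilaterally in control mice (mean ± SD, n = 5 libraries), and 4.29 ± 0.412 and 6.25 ± 0.631 CPM in cKO mice, rising by 0.53 and 0.54 on the log2 scale with no overlap between sides. Itgav, whose product binds vitronectin and fibronectin, rose by 0.48 and 0.32, and Itgb8, its partner in activating latent TGF-beta, by 0.26 and 0.24 on the log2 scale. The cKO call of Itgav was lost without H61, H64, H99 or H100, at adjusted p values up to 0.0987. Itgb8 was the weakest of these, with adjusted p values of 0.0295 and 0.0376 and overlapping sides, and it no longer passed in cKO without H61, H64, H100 or the 5 libraries (adjusted p up to 0.14) or in control without H62 or H63 (up to 0.159). Itga4, a receptor for fibronectin and VCAM1, fell, with signed changes of -0.31 in control and -0.41 in cKO, and Itgb6, an epithelial chain, changed by -0.58 and -0.44, its cKO call being lost without H61, H64, H99 or H100 (adjusted p up to 0.0929). Itgb3bp, a centromere and nuclear receptor cofactor protein despite its name, changed by -0.17 and -0.12. Among the laminin-binding chains of Schwann cells, Itga6 and Itgb4 gave log2 fold changes of 0.13 and 0.10 in control and 0.21 and 0.094 in cKO, and none of these passed. Itga6 was higher ipsilaterally in 5 of 5 cKO mice with no overlap between sides, and passed there in the fit of the cKO libraries alone (0.23; adjusted p 0.0466).

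**Figure D2:**
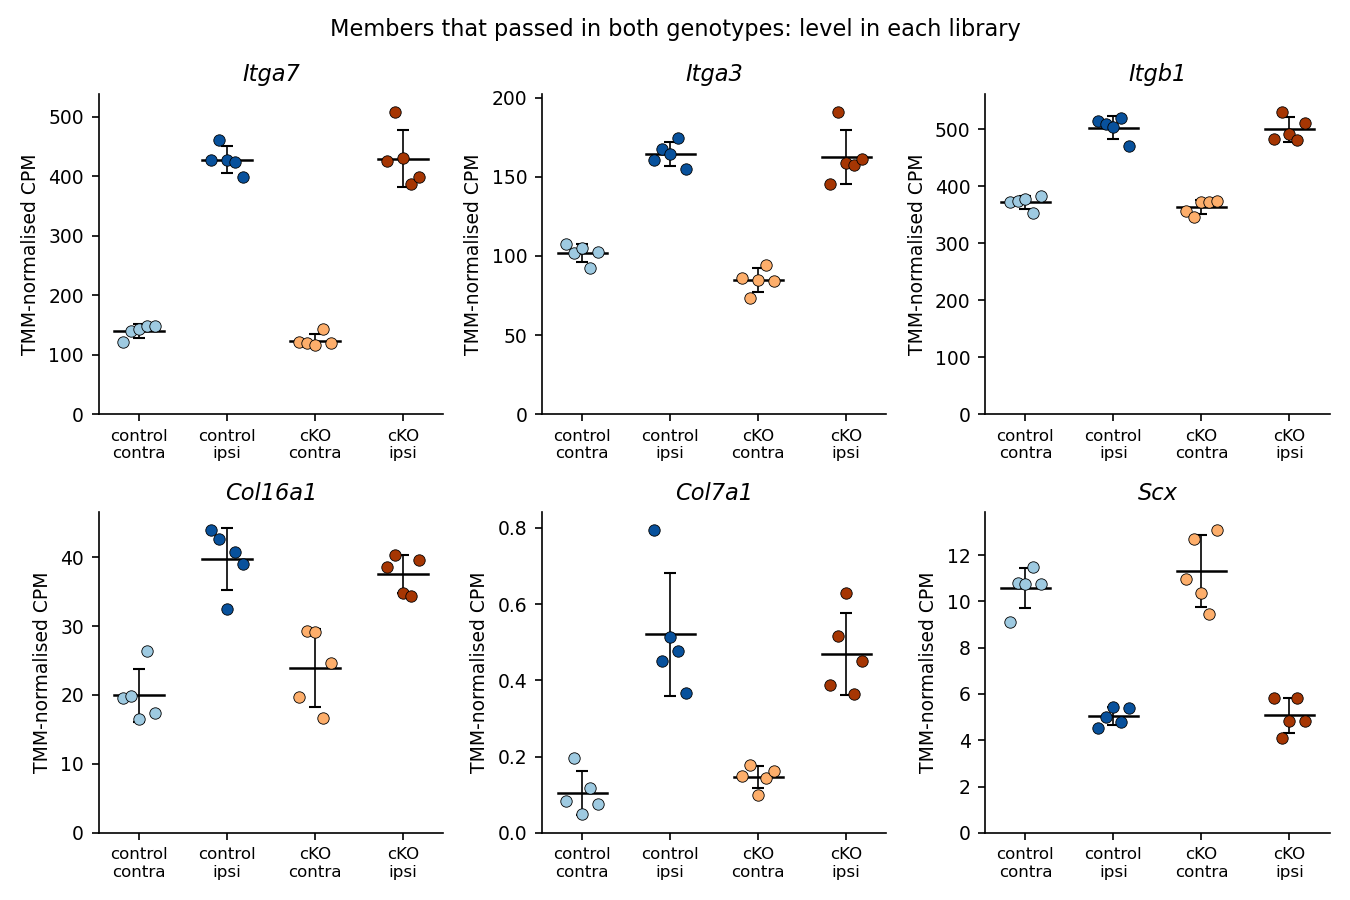
TMM-normalised CPM of 6 members in each library, by group (5 libraries a group; bar, mean; whiskers, SD; y axes start at 0). For Itga7, Itga3, Itgb1, Col16a1, Col7a1 and Scx the ipsilateral points of either genotype lie wholly above, or for Scx wholly below, the contralateral points.

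Collagens contributed 3 shared increases, all of minor collagens. Of the 44 collagens, 9.09% were called higher and 0% lower in control, and 6.82% and 15.9% in cKO. Over all genes these shares were 13.8% and 16% in control and 16.2% and 15.1% in cKO. Col16a1, a fibril-associated collagen, stood at 19.6, 19.8, 16.5, 26.3 and 17.4 CPM contralaterally and 43.9, 42.6, 32.5, 40.8 and 39.0 CPM ipsilaterally in control mice. In cKO mice it stood at 19.7, 29.3, 29.1, 16.7 and 24.7 CPM and 38.6, 40.2, 34.8, 34.4 and 39.5 CPM. The sides were separate in both genotypes, and the increase was 1.0 ± 0.15 in control and 0.65 ± 0.15 in cKO on the log2 scale (adjusted p 3.93e-05 and 0.0021). The anchoring fibril collagen Col7a1 was scarce, with 5 to 70 counts a library, and stood at 0.0846, 0.196, 0.0497, 0.116 and 0.0748 CPM and 0.794, 0.450, 0.513, 0.478 and 0.366 CPM on the 2 sides of control mice. Its cKO values were 0.148, 0.177, 0.0999, 0.145 and 0.161 CPM contralaterally and 0.387, 0.517, 0.629, 0.364 and 0.451 CPM ipsilaterally. Col7a1 gave the largest called increase among members in control, 2.31 ± 0.29 on the log2 scale, and 1.68 ± 0.28 in cKO. Col6a5, a type VI chain, rose by 2.12 ± 0.35 and 1.36 ± 0.34, from a control contralateral range of 0.340 to 1.15 CPM to 1.96 to 2.87 CPM. Its level also followed the fibroblast score among libraries of the same group, described below.

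The type IV chains Col4a1 and Col4a2, with the overlapping windows printed above, did not pass. Col4a1 stood at 98.4, 118, 82.6, 103 and 104 CPM and 124, 127, 90.1, 146 and 121 CPM on the contralateral and ipsilateral sides of control mice, and Col4a2 at 57.8, 73.9, 49.8, 60.0 and 64.7 CPM and 77.0, 79.4, 52.7, 90.5 and 75.0 CPM. In control mice both were lowest in H65 on either side and highest ipsilaterally in H96. Their log2 fold changes were 0.27 ± 0.13 and 0.29 ± 0.13 in control (adjusted p 0.137 and 0.103) and 0.16 and 0.17 in cKO. With mouse as a block, Col4a2 passed in control. Col14a1, a fibril-associated collagen, passed in control at 0.34 ± 0.13 (adjusted p 0.0475) and gave -0.046 in cKO; the control call was lost with the fibroblast score as a covariate (adjusted p 0.198) and in 6 of the 10 fits that left out a mouse.

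Of the 11 laminins, 2 passed in control (18.2%) and 3 in cKO (27.3%), against 29.9% and 31.3% of all genes. Lama5, the alpha chain of vessel and epithelial basement membranes, stood at 5.27, 5.46, 4.24, 4.64 and 5.37 CPM contralaterally and 7.29, 7.79, 6.05, 7.61 and 7.49 CPM ipsilaterally in control mice, and at 4.74, 6.59, 6.55, 6.02 and 6.01 CPM and 7.51, 8.51, 7.77, 6.37 and 6.91 CPM in cKO mice. The sides were separate in control and overlapped in cKO, with log2 fold changes of 0.54 ± 0.10 and 0.31 ± 0.10; without cKO mouse H61 the cKO call was lost (adjusted p 0.0887). Lamb3, a chain of epithelial laminin, rose from 0.436 ± 0.0796 to 1.29 ± 0.259 CPM in control (log2 1.57 ± 0.31; adjusted p 0.000582) and gave 0.79 ± 0.30 in cKO (adjusted p 0.0515). In cKO Lamb3 passed with mouse as a block (0.88; adjusted p 0.0242), with each of the 3 marker scores as a covariate and without the 5 libraries (1.77; adjusted p 0.000412). Lamb1 rose by 0.24 and Lama1 by 0.36 in cKO. Without mouse H64 neither passed (adjusted p 0.119 and 0.06), and Lamb1 was also lost without H61 or H100 (up to 0.133). Both were also lost without the 5 libraries, Lama1 at 0.18 (adjusted p 0.329) and Lamb1 at 0.22 (adjusted p 0.0862). Lama2, the alpha chain of Schwann cell and muscle laminin, gave 0.015 and 0.050, Lamb2 0.23 and -0.26, Lamc1 0.16 and 0.035 and Lama4, the chain of vessel walls, 0.14 and -0.019, none of which passed.

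Among the tendon and connective tissue genes, Scx and Angptl7 fell in both genotypes. Scx, which encodes the tendon transcription factor scleraxis, stood at 9.10, 10.8, 10.8, 11.5 and 10.8 CPM contralaterally and 4.53, 5.02, 5.42, 4.80 and 5.41 CPM ipsilaterally in control mice. In cKO mice it stood at 11, 12.7, 10.4, 9.44 and 13.1 CPM and 5.83, 4.08, 4.82, 5.84 and 4.81 CPM. No ipsilateral library reached the lowest contralateral one, and Scx fell, with signed log2 fold changes of -1.07 ± 0.10 and -1.16 ± 0.10 (adjusted p 5.35e-08 and 1.4e-08). Of the 6 tendon markers tested, 1 was called lower in control and 2 in cKO, and the tendon score differed between sides by 0.21 ± 0.33 in control and -0.63 ± 0.59 in cKO mice (mean ± SD over 5 mice each; -0.21 over all 10, adjusted p 0.447, exact sign-flip permutation test), and Scx had a slope of 0.032 on the fibroblast score. Over the alternatives run, the log2 fold change of Scx ranged from -1.09 to -1.01 in control and -1.27 to -1.0 in cKO.

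Angptl7, a secreted factor of connective tissue, stood at 7.01, 6.12, 7.39, 5.19 and 4.69 CPM contralaterally and 3.70, 2.59, 1.65, 2.61 and 3.48 CPM ipsilaterally in control mice. In cKO mice it stood at 4.77, 9.14, 7.67, 3.36 and 4.41 CPM and 2.41, 3.44, 3.61, 2.66 and 3.08 CPM. All 10 mice had the lower value on the ipsilateral side, with signed log2 fold changes of -1.11 ± 0.25 and -0.95 ± 0.25 (adjusted p 0.00234 and 0.00721). The cKO call was lost without the 5 libraries, at -0.41 and an adjusted p of 0.318, and with the tendon, cartilage and bone score as a covariate (adjusted p 0.121). Of the small proteoglycans, Lum gave 0.29 and 0.12, Dcn 0.19 and -0.090, and neither passed. Lum passed in control under 4 alternatives, limma-voom, in which mouse was random (0.29; adjusted p 0.0451), DESeq2 (0.0211), a mean CPM filter (0.0419) and a fit of the control libraries alone (0.0341). Tenascin-C, Tnc, gave 0.45 in control and -0.41 in cKO, and did not pass. With the tendon, cartilage and bone score as a covariate it turned direction in cKO and passed as higher, at 0.94 (adjusted p 0.0431).

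A further 14 members passed in cKO mice and not in control, 12 of them lower on the ipsilateral side, with Lama1 and Lamb1 higher. Over all genes 9.93% passed in cKO only, 5.12% of them lower and 4.81% higher as shares of the genes tested. The lower group held cartilage and bone collagens (Col2a1, Col9a1, Col9a2, Col10a1), the tendon and cartilage proteoglycan Chad, the bone sialoprotein Ibsp, dermatopontin (Dpt), Col8a2, Col25a1, Col4a5 and the integrin chains Itga11 and Itgb5, of which Col9a2 and Col4a5 were named after their values were seen. Passing in cKO alone is not a difference between genotypes, and some of these members were also lower ipsilaterally in control. Col25a1 was lower in 5 of 5 control mice with no overlap between sides (-0.27 ± 0.24, adjusted p 0.457). Col9a2 was lower in 5 of 5 control mice (-0.39 ± 0.21, adjusted p 0.186) and -0.65 ± 0.21 in cKO. In control it passed with each of the 3 marker scores as a covariate and without the 5 libraries (-0.51; adjusted p 0.00903), where it gave -0.049 in cKO (adjusted p 0.865). Chad stood at 3.67, 1.31, 1.15, 0.946 and 2.49 CPM contralaterally and 2.71, 3.05, 2.83, 1.88 and 2.31 CPM ipsilaterally in control mice. In cKO mice it stood at 5.08, 22.7, 36.0, 2.65 and 10.1 CPM contralaterally and 2.12, 2.95, 1.91, 2.40 and 3.32 CPM ipsilaterally. The ipsilateral values of both genotypes lay in the same range, and the contralateral libraries of cKO mice H64, H95 and H100, with the 3 highest fibroblast scores, held the 3 highest Chad values. The log2 fold change was -2.59 ± 0.57 in cKO (adjusted p 0.00185) and 0.42 ± 0.56 in control (adjusted p 0.643). Without the 5 libraries it was -0.60 in cKO (adjusted p 0.223) and 0.91 in control, where it then passed as higher (adjusted p 0.0348).

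Col2a1, the main collagen of cartilage, stood at 9.76, 1.81, 1.32, 1.78 and 5.44 CPM contralaterally and 1.42, 1.89, 1.15, 9.41 and 1.86 CPM ipsilaterally in control mice. Its cKO values were 1.16, 6.58, 45.0, 3.36 and 1.27 CPM and 1.01, 1.78, 1.82, 1.73 and 2.38 CPM. H95 contralateral held the highest value and was also the highest for the cartilage and bone score, and H62 contralateral and H96 ipsilateral were the high control libraries in both measures. The cKO log2 fold change was -2.72 ± 0.98 (adjusted p 0.044), and it was -0.84 without mouse H95 (adjusted p 0.512) and -1.40 with mouse as a block (adjusted p 0.327). Its call was also lost without H63, H65, H97, H61, H64 or H99, at adjusted p values up to 0.0913, with log2 fold changes close to the full one. Without the 5 libraries it was -0.37 (adjusted p 0.691).

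Ibsp, a mineral-binding protein of bone, stood at 17.0, 7.37, 7.72, 6.47 and 7.43 CPM and 5.41, 5.30, 4.24, 17.7 and 10.1 CPM on the contralateral and ipsilateral sides of control mice. In cKO mice it stood at 8.99, 7.75, 31.1, 9.48 and 5.25 CPM contralaterally and 4.62, 4.54, 4.45, 4.70 and 4.67 CPM ipsilaterally. The cKO ipsilateral values lay close together, and the 3 highest libraries were again H62 contralateral, H96 ipsilateral and H95 contralateral. The cKO log2 fold change was -1.45 ± 0.48 (adjusted p 0.0281). The call was lost with mouse as a block (-1.14, adjusted p 0.122) and without H95 (-0.76, adjusted p 0.212). It was narrowly lost without H61, H64 or H99 (up to 0.053). Ibsp stayed called in cKO without the 5 libraries, at -1.0 (adjusted p 0.00502). The collagen of hypertrophic cartilage, Col10a1, reached 0.750 to 6.99 CPM in cKO contralateral libraries against 0.551 to 0.954 CPM in control ones, H95 holding the top value, and its cKO call was lost with the block (adjusted p 0.152) and without H95 (0.236). Col10a1 changed by -1.62 ± 0.51 in cKO, and gave -0.99 with the block, -0.32 without H95 and -0.15 without the 5 libraries (adjusted p 0.68).

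Dpt, a matrix protein of dermis and fascia, stood at 3.29, 1.80, 1.62, 0.979 and 1.5 CPM contralaterally and 2.08, 2.74, 2.45, 1.07 and 3.24 CPM ipsilaterally in control mice. In cKO mice it stood at 6.97, 8.81, 4.57, 2.26 and 3.98 CPM and 1.78, 2.38, 2.62, 1.98 and 2.65 CPM. The cKO contralateral libraries of H61 and H64 were highest, and the other 3 groups overlapped. Dpt gave -1.22 ± 0.35 in cKO (adjusted p 0.0132, and 0.0726 without H61 and 0.0762 without H64) and 0.34 ± 0.36 in control. The cKO call of Dpt held without the 5 libraries at -1.01 (adjusted p 0.0421) and gave 0.85 in control (adjusted p 0.0515). The fibrillar collagen receptor Itga11, known from fibroblasts, fell from 7.02 ± 1.54 to 3.98 ± 0.540 CPM in cKO with no overlap between sides (log2 -0.82 ± 0.15) and gave -0.31 ± 0.15 in control, where it was lower ipsilaterally in 5 of 5 mice. In control Itga11 passed with mouse as a block (-0.28; adjusted p 0.0335) and with the fibroblast score (-0.52; adjusted p 0.000449) or the macrophage and neutrophil score (-0.40; adjusted p 0.0418) as a covariate. Col8a2, a short-chain collagen, gave -1.21 ± 0.41 in cKO, and without the 5 libraries 0.038. Its call held in 13 of 21 alternatives and was lost without H61, H64 or H95 (adjusted p up to 0.13). Col9a1, a cartilage chain, gave -3.39 ± 0.85 and Col25a1, a membrane collagen of neurons, -0.96 ± 0.24. Leaving out the 5 libraries gave -1.74 (adjusted p 0.085) and -0.35 (adjusted p 0.0576). Col4a5, a type IV chain of specialised basement membranes, gave -0.47 ± 0.17 (adjusted p 0.0349), lost with mouse as a block (adjusted p 0.0555), and turned to 0.12 without the 5 libraries (adjusted p 0.403). Itgb5, a partner of the alpha-v chain, gave -0.37 ± 0.13, and 0.053 without the 5 libraries. It passed in 10 of 21 alternatives, and was lost without H63, H64, H95, H96, H97 or H100 (adjusted p up to 0.211).

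None of these responses was shown to differ between genotypes. In the interaction test, which compares the response of cKO mice with that of control mice, 0% of all genes passed and 0 of 96 members did. An unadjusted p under 0.05 was held by 23 members, against 2799 of the 28564 genes tested. The smallest adjusted p of a member was 0.485, and DESeq2 called 0 members and 11 of all genes. For Chad the interaction was -3.01 ± 0.79 on the log2 scale and for Dpt -1.56 ± 0.50. The interaction was negative in 39 of 44 collagens, with a median of -0.62, and in 18 of 31 integrin-type symbols, with a median of -0.014, against 0.011 over all genes.

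The genotype comparison of contralateral ganglia uses the same cKO contralateral libraries as the cKO response and the interaction, so these are not separate observations. No member passed, against 0.0735% of all genes (21 genes), and Chad had the smallest adjusted p, 0.0548. Of the 96 members, 39 had an unadjusted p under 0.05, against 5006 of the 28564 genes tested. Of the 44 collagens, 39 were higher in cKO than in control contralateral libraries, with a median log2 difference of 0.59, and of the 10 named genes 9 were, with a median of 0.39. Integrin-type symbols divided into 13 higher and 18 lower, with a median of -0.016, against -0.013 over all genes. The count moved most with DESeq2, which called 22 members (and 1041 of all genes), and without cKO mouse H99, which gave 27 members (and 3326 of all genes). Testing only genes that averaged 1 CPM or more gave 1 member, and leaving out any other mouse 0 to 2. H99 held the lowest fibroblast score among the cKO contralateral libraries, 3.75 against 4.41 to 5.40 in the others. The fibroblast score itself was higher in cKO contralateral libraries by 1.10 (p 0.0317, exact permutation test, two-sided, 5 against 5; adjusted over 10 tests 0.238) and the tendon score by 0.92 (p 0.0476; adjusted 0.238).

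Fibronectin, Fn1, is the ligand of several of these integrins. It stood at 145, 42.5, 32.3, 23.6 and 40.9 CPM contralaterally and 69.7, 71.3, 53.1, 65 and 78.8 CPM ipsilaterally in control mice, and at 93.9, 228, 331, 58.0 and 361 CPM and 58.5, 106, 84.9, 64.7 and 159 CPM in cKO mice. The high contralateral libraries were H64, H95 and H100 in cKO and H62 in control, and the groups overlapped on either side. Its log2 difference between genotypes was 1.92 ± 0.54 contralaterally (adjusted p 0.115) and 0.48 ± 0.52 ipsilaterally, and its response to the lesion was 0.25 ± 0.52 in control and -1.18 ± 0.52 in cKO, none of which passed. Without the 5 libraries Fn1 passed as higher in control at 0.99 (adjusted p 0.0388), as did Col12a1 (0.95) and Col6a3 (0.71), and Fn1 gave 0.32 in cKO (adjusted p 0.605). With the macrophage and neutrophil score as a covariate, Fn1 passed as lower in cKO at -1.15 (adjusted p 0.0447), as did Col6a2 (-0.96) and Col1a1 (-0.83). Col6a2, a chain of the beaded filaments made by fibroblasts, stood at 74.4, 59.8, 28.1, 29.4 and 40.0 CPM and 65.9, 76.2, 50.1, 45.3 and 83.6 CPM in control mice and at 80.2, 222, 213, 43.5 and 204 CPM and 45.3, 74.4, 61.5, 62.4 and 125 CPM in cKO mice. As for Fn1, H64, H95 and H100 were the high libraries of the cKO contralateral group, and H61 and H99 the low ones.

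Col1a1, the main chain of tendon and bone collagen, stood at 347, 167, 104, 114 and 126 CPM and 169, 198, 148, 439 and 201 CPM on the contralateral and ipsilateral sides of control mice. Its cKO values were 166, 451, 491, 172 and 345 CPM and 108, 184, 177, 170.5 and 277 CPM. Its high control libraries were H62 contralateral and H96 ipsilateral, those with high cartilage and bone scores. The genotype difference was 0.92 ± 0.42 contralaterally (adjusted p 0.265) and -0.33 ± 0.41 ipsilaterally. Its responses to the lesion were 0.43 ± 0.42 and -0.83 ± 0.42, and 0.50 in control and 0.13 in cKO without the 5 libraries, none of which passed. On the ipsilateral side as a whole, no member passed between genotypes, against 0.007% of all genes (2 genes). No member had an unadjusted p under 0.05, against 674 of the 28564 genes tested. DESeq2 called 0 members and 3 genes, and the member median was -0.025.

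**Figure D3:**
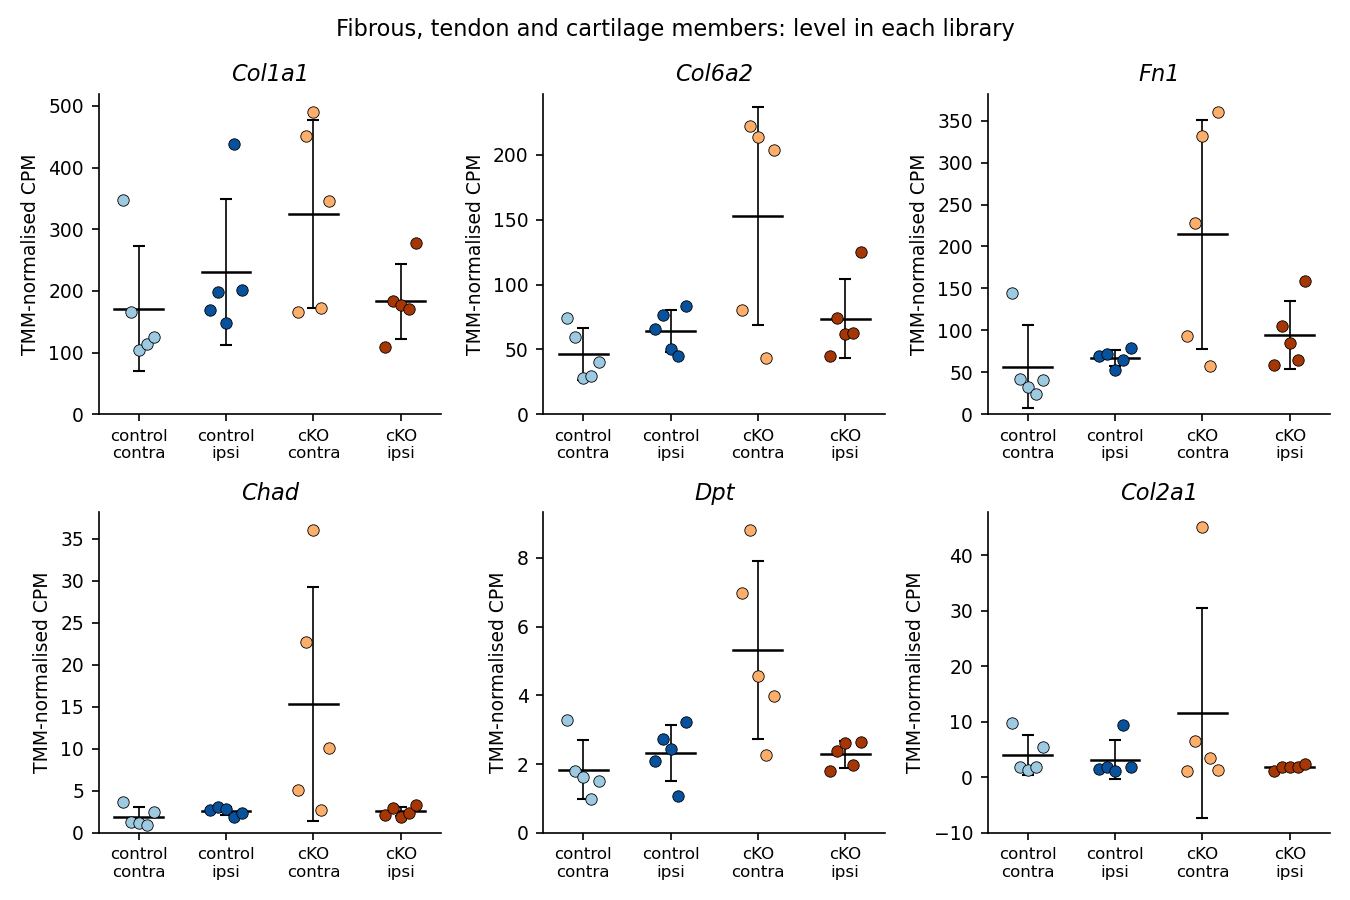
TMM-normalised CPM of 6 fibrous, tendon and cartilage members in each library, by group (5 libraries a group; bar, mean; whiskers, SD). For Col1a1, Col6a2, Fn1 and Chad the cKO contralateral libraries of H64, H95 and H100 lie above the other 2 of their group, and for Col2a1 H95 alone holds most of the signal, so that its lower whisker runs below 0.

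The relation to connective tissue markers was tested within groups, as the slope of each gene on the fibroblast score in a fit that also held the 4 group means. The slope passed for 31 of the 96 members (30 positive, 1 negative; 32.3%), against 10.5% of all genes (5.64% positive and 4.85% negative). The median slope of members was 0.31 log2 units per unit of score, against -0.015 over all genes. Markers of other tissues moved with the same libraries: all 7 meninges markers had a positive called slope, with a median of 1.63, as did 4 of 6 perineurium and 3 of 5 erythroid markers. The 10 fibroblast genes make up the score, so their slopes (9 of 10 called, median 1.09) follow from how it was built. The meninges score was 2.71, 3.96, 5.15, 2.75 and 5.50 in the cKO contralateral libraries, in the order of mice above, and 1.56 to 3.81 in the control ones, with H95 and H100 highest. The summed level of its 7 genes was 42.8 to 379 CPM in control contralateral, 116 to 301 in control ipsilateral, 145 to 1092 in cKO contralateral and 87.3 to 507 in cKO ipsilateral libraries, and none of the 7 was at 0 in any library. The part of these tissues in the members' slopes was not tested. The steepest called slopes were those of Fn1 at 1.71 ± 0.17 (adjusted p 7.42e-06), Col6a2 at 1.48 ± 0.085 (adjusted p 4.64e-09), Col8a2 at 1.44 ± 0.086, Chad at 1.69 ± 0.31 and Itga10, a collagen receptor of chondrocytes, at 1.58 ± 0.28, the last 2 with wider errors. Col6a1, the partner of Col6a2, had a slope of 1.38 ± 0.094. Col12a1, a fibril-associated collagen of tendon and fascia, had a slope of 1.18, Col6a3 0.97, Col3a1 0.91, Col5a1 0.83, Col1a2 0.79 and Col1a1 0.97. The platelet-derived growth factor receptor Pdgfra, a fibroblast receptor, had 0.86 ± 0.083, Dcn 0.46, Dpt 0.85 and the laminin chain Lamb2 0.70, all past the threshold. With mouse as a block, 7 of these named slopes lost their call, among them Fn1 at 1.51 (adjusted p 0.0662), Chad at 1.99 (0.133), Itga10 at 1.57 (0.142) and Col1a1 at 1.35 (0.149). The other 3 were Col1a2 (adjusted p 0.0826), Dcn (0.201) and Dpt (0.242). Col6a1, Col6a2, Col6a3, Col8a2, Col12a1, Col3a1, Col5a1, Pdgfra and Lamb2 kept theirs, of which Col3a1 (adjusted p 0.0977) and Lamb2 (0.291) were lost without the 5 libraries, where Chad had a slope of 0.72 (0.827). Over 15 alternatives, Dpt passed in 8 and Col1a1 in 5.

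For other members the slope did not pass. Itgb1 had a slope of 0.0011 ± 0.030, Scx 0.032 ± 0.088, Lum 0.11 ± 0.10, Col28a1 0.011 ± 0.057 and the basement membrane chains Col4a1 and Lama2 0.091 ± 0.11 and 0.075 ± 0.11, and none passed. Itga7 had -0.15 ± 0.052 (adjusted p 0.0646), a sign opposite to that of the fibrous collagens, and Itgb6 at -0.34 ± 0.11 was the 1 member called with a negative slope, a call that held in 3 of 15 alternatives and was lost with mouse as a block (adjusted p 0.361). Of the 15 members that passed for injury in both genotypes, 3 (Angptl7, Col6a5 and Itgb6) also had a called slope, that of Angptl7 being lost with the block (adjusted p 0.348), and 20 members had a called slope and no call for injury in either genotype. Over all genes, the slope was called for 9.44% of the 6101 called in both genotypes in the same direction (2.02% of the genes tested), and 5.7% of the genes tested had a called slope and no injury call. The count of called slopes was 17 with mouse as a block (5.94% of all genes), 19 without mouse H99, which held the low cKO contralateral score (2.54%), and 14 without the 5 libraries (0.785%, 233 genes).

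**Figure D4:**
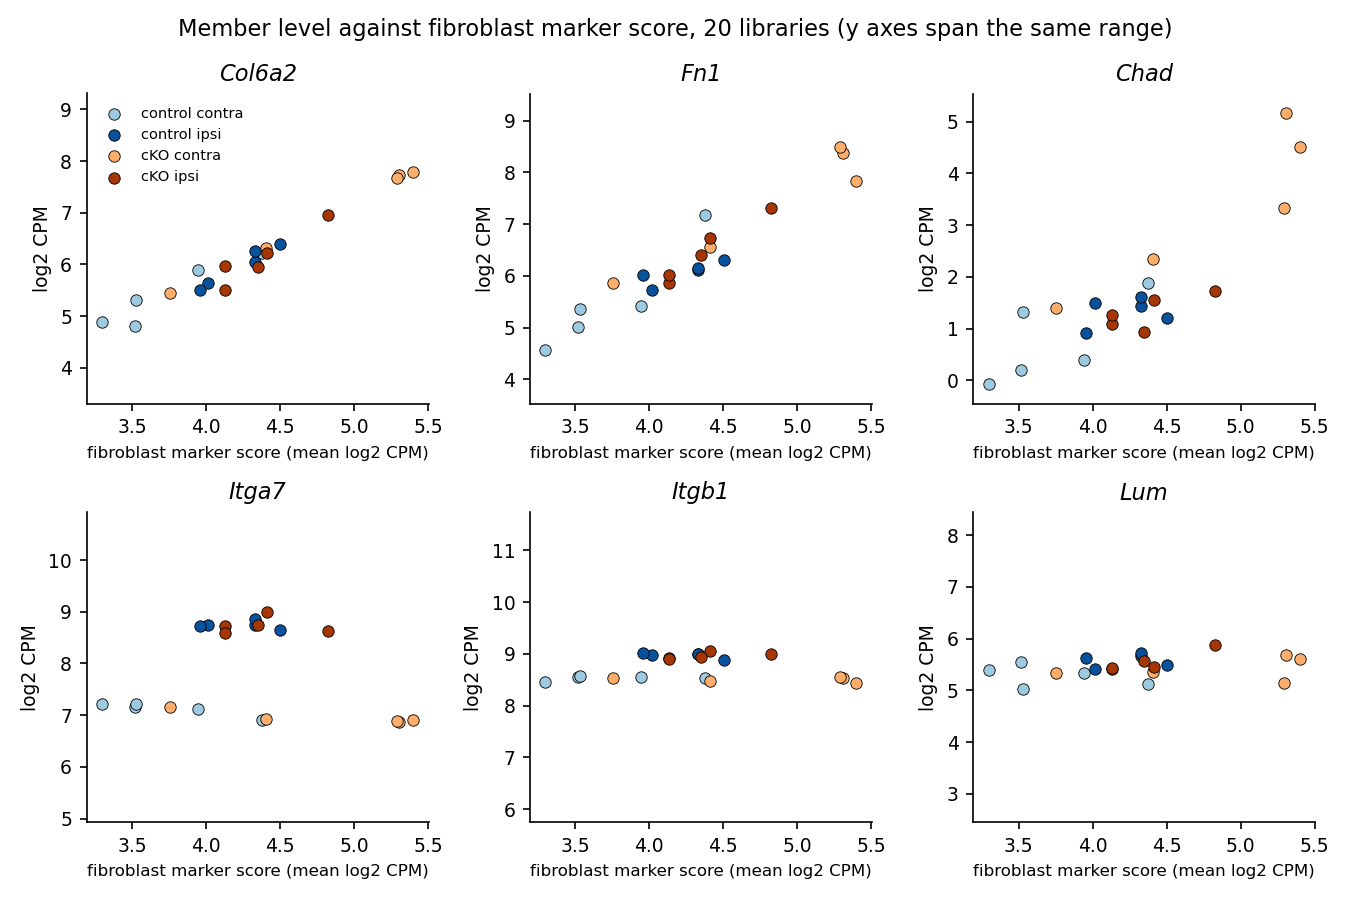
Log2 CPM of 6 members (y axis, each panel spanning the same range) against the fibroblast marker score (x axis, mean log2 CPM of 10 genes) in 20 libraries, coloured by group. Col6a2, Fn1 and Chad climb with the score through the contralateral libraries of H64, H95 and H100, whereas Itga7 and Itgb1 separate by side at any score and Lum is nearly level.

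With the fibroblast score as a covariate, injury was called for 18 members in control, 16 of them called before, and for 24 in cKO, 21 of them called before, while 27.2% and 30.5% of all genes passed. The calls lost in cKO were Col2a1 (from -2.72 to -1.74), Col9a2 (-0.65 to -0.44), Col10a1 (-1.62 to -1.08), Col4a5 (-0.47 to -0.21) and Itgb5 (-0.37 to -0.15), and, with smaller moves, Ibsp (-1.45 to -1.2), Itgb8 (0.24 to 0.19) and Lamb1 (0.24 to 0.24; adjusted p 0.0538). Those lost in control were Col14a1, Itga5 and, named after its value was seen, Itga1. With the tendon, cartilage and bone score instead, all 19 control calls were kept and 15 of the 29 cKO calls, while 29.8% of all genes passed in control and 25.5% in cKO. The 14 lost in cKO held every cartilage and bone member of the list above together with Chad, Dpt, Angptl7, Col8a2, Col25a1, Col4a5, Itgb5, Itgb8 and Lama1. The size of the change differed among them: Dpt went from -1.22 to -0.98, Angptl7 from -0.95 to -0.68 and Chad from -2.59 to -1.21, while Col10a1 was -0.19, Ibsp -0.17 and Col2a1 0.64. Without the 5 libraries, 27 members passed in control (18 of the 19) and 22 in cKO (16 of the 29), against 29.3% and 24.1% of all genes. With the macrophage and neutrophil score as a covariate, 40 members passed in cKO (26 lower), all 29 called before among them, against 34.5% of all genes. Of the 15 shared calls, 9 held in both genotypes under each alternative that tested them: Itga7, Itga3, Itgb1, Itga2, Itga4, Col16a1, Col6a5, Col7a1 and Scx. Col7a1, whose mean was under 1 CPM, was tested in 20 alternatives and the other 8 in 21.

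Differences within mice are given as a description, since these members were grouped by their slopes and injury calls in the same libraries. The fibroblast score of the ipsilateral library minus that of the contralateral one was -0.046, 0.38, 0.50, 0.66 and 0.97 in control mice H62, H63, H65, H96 and H97 and -0.28, -0.99, -0.96, 0.38 and -0.47 in cKO mice H61, H64, H95, H99 and H100. Fn1 differed between sides by -1.06, 0.75, 0.72, 1.46 and 0.94 log2 units in the same control mice and by -0.68, -1.10, -1.96, 0.16 and -1.18 in the cKO mice. The sign was that of the score in 10 of 10 mice for Fn1, Col6a2, Col1a2 and Pdgfra, and in a median of 9 of 10 mice over the 30 members with a positive called slope. Itga7 differed by 1.82, 1.72, 1.58, 1.51 and 1.43 in control and 1.81, 2.09, 1.88, 1.44 and 1.74 in cKO mice, positive in 10 of 10, and each of the 10 members that rose in both genotypes was higher ipsilaterally in 10 of 10 mice. Over 10 mice the side difference of the fibroblast score was 0.016 ± 0.67 (mean ± SD; p 0.934, exact sign-flip permutation test), 0.49 ± 0.37 in control and -0.46 ± 0.56 in cKO, where 5 mice cannot give a two-sided p under 0.0625.

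**Figure D5:**
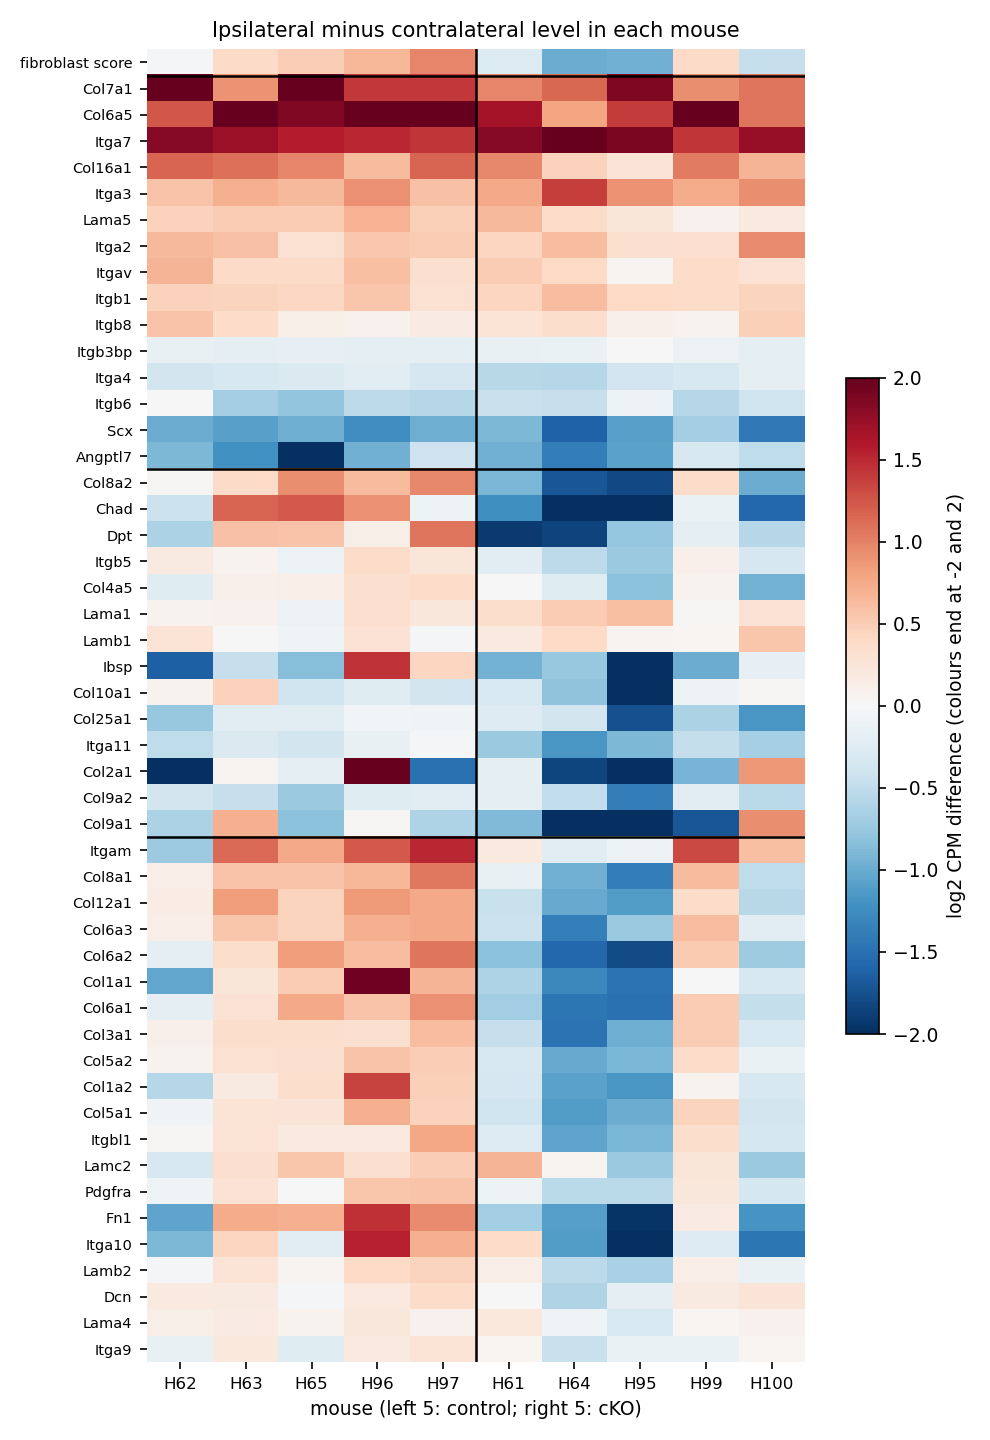
Ipsilateral minus contralateral log2 CPM in each mouse (columns) for the fibroblast score (top row) and for members called in both genotypes, in cKO alone, or for the fibroblast slope without an injury call (row blocks from top to bottom). The top block has 1 colour per row in nearly every mouse, while the bottom block follows the colour of the score, blue in H64 and H95 and red in H99.

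Of the integrin chains known mainly from leukocytes, Itga4 was called lower in both genotypes, as given above, and Itgam, Itgb2, Itgal and Itgax were not called in the fit over all 20 libraries. Itgam, the chain of myeloid cells, stood at 8.14, 2.85, 2.24, 3.15 and 1.87 CPM and 4.90, 6.39, 3.86, 7.47 and 5.47 CPM on the contralateral and ipsilateral sides of control mice, H62 contralateral being the highest of the 10. It stood at 3.66, 8.16, 5.56, 1.83 and 4.18 CPM and 4.19, 6.93, 5.15, 4.71 and 6.43 CPM in cKO mice. Without the 5 libraries Itgam passed as higher in control at 1.03 (adjusted p 0.00564) and in cKO at 1.0 (adjusted p 0.0266), and in cKO also when the fibroblast score was a covariate, at 0.83 (adjusted p 0.0316). Its slope on that score was 1.05, a call that held in 13 of 15 alternatives. It was lost without H99 (adjusted p 0.118) and without the 5 libraries (0.478). Over all libraries its log2 fold changes of 0.62 ± 0.39 and 0.23 ± 0.39 did not pass, nor did those of its partner Itgb2 (0.18 and 0.064), the lymphocyte chain Itgal (-0.074 and -0.15) or the dendritic cell chain Itgax (-0.14 and 0.15). Itgad, a macrophage chain at 3 to 17 counts a library and named after its values were seen, gave -1.07 ± 0.42 in cKO (adjusted p 0.0575) and passed as lower with the macrophage and neutrophil score as a covariate (-1.14; adjusted p 0.0362) and in limma-voom (-1.23; adjusted p 0.0159). The neutrophil score of 8 genes was 3.80 in H62 contralateral against 1.84 to 2.26 in the other 4 control contralateral libraries, and the macrophage score of 11 genes differed between sides by 0.22 over 10 mice (adjusted p 0.447, exact sign-flip permutation test). Itga5, a fibronectin receptor of fibroblasts and vessels, passed in control (log2 0.59 ± 0.21; adjusted p 0.0424, lost without H63, H64, H65, H96 or H97 at up to 0.175) with a slope on the fibroblast score of 0.66 ± 0.091. Itga9, a tenascin receptor, gave 0.057 and -0.12 with a slope of 0.23, which did not pass with the block (adjusted p 0.327). The muscle protein Itgb1bp2, named after its value was seen, stood at 1.2 CPM in the contralateral library of cKO mouse H100, which had the highest muscle score (7.28), and at no more than 0.0463 CPM in the other cKO libraries, where it was at 0 in 1 library of each side; its cKO log2 fold change of -3.62 did not pass (adjusted p 0.0847; with DESeq2 -3.66, adjusted p 0.0393).

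Genes that make, modify or answer to these members were read from 4 lists, in which no gene was called between genotypes. Their counts stand beside the background of 13.8% of all genes higher and 16% lower in control, 16.2% and 15.1% in cKO, and 5.64% with a positive and 4.85% with a negative called slope. Of 24 genes of collagen processing, 7 rose and 2 fell in control, and 4 rose and 1 fell in cKO, with medians of 0.22 and -0.044 on the log2 scale. Plod3, a lysyl hydroxylase that also glycosylates collagen, averaged 48.7 ± 2.09 CPM contralaterally and 70.8 ± 1.62 CPM ipsilaterally in control mice and 45.0 ± 2.63 and 72.0 ± 2.56 CPM in cKO mice (log2 0.54 ± 0.038 and 0.68 ± 0.038). P4ha3, a prolyl hydroxylase subunit, rose by 0.50 ± 0.053 in control and 0.63 ± 0.053 in cKO. In control the largest called increases were in Bmp1, the procollagen C-proteinase, at 0.84 ± 0.15, and Loxl2, a collagen cross-linking oxidase, at 0.74 ± 0.16, while Colgalt1 and Colgalt2, which add galactose to collagen, had small decreases. In cKO Bmp1 gave 0.37 ± 0.15 and Loxl2 0.36 ± 0.15, and neither passed. Adamts2, the procollagen N-proteinase, fell in cKO at a signed -0.78 ± 0.26 from contralateral values of 42.6 ± 18.1 CPM, and gave 0.14 ± 0.26 in control. It had a called slope of 0.87 on the fibroblast score (adjusted p 6.48e-07). Of the 24, 14 had a positive called slope on the fibroblast score and 1 a negative one.

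Of 21 proteoglycans and interstitial matrix genes, 1 rose in control (periostin, Postn, 0.64 ± 0.14), and in cKO 2 rose (Postn at 0.55 ± 0.14 and Tnr) and 2 fell (fibrillin, Fbn1, at a signed -0.92 ± 0.29 against 0.37 ± 0.29 in control, and Tnn), while 17 of 21 had a positive called slope with a median of 0.90. Fbn1 had a called slope of 0.91 (adjusted p 0.000476), whereas the slopes of Postn, Tnr and Tnn were not called. Of 13 other basement membrane genes, 4 rose in control and 2 in cKO, among them Fbln5, a fibulin of elastic fibres, at 0.46 ± 0.063 and 0.39 ± 0.063 and Bcam, a laminin receptor, at 0.24 ± 0.036 and 0.32 ± 0.036, and 4 of 13 had a positive called slope. Of 20 tested integrin adhesion genes, 7 rose and 3 fell in control and 8 rose and 1 fell in cKO, with a positive slope called for none and a negative one for 2. Ptk2, focal adhesion kinase, averaged 42.8 ± 0.330 CPM contralaterally and 62 ± 2.05 ipsilaterally in control mice, against 42.1 ± 1.63 and 60.8 ± 3.66 CPM in cKO mice (log2 0.53 ± 0.037 and 0.53 ± 0.037). Zyxin, Zyx, rose by 0.49 ± 0.042 in control and 0.50 ± 0.042 in cKO, and the adaptor Bcar1 by 0.45 ± 0.044 and 0.54 ± 0.044. Tln2, a talin that links integrins to actin, and Tns1, a tensin, fell in control at signed values of -0.28 ± 0.061 and -0.16 ± 0.043, and gave -0.12 ± 0.061 and -0.10 ± 0.043 in cKO, which did not pass.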

How the data were processed

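Bulk RNA-seq of 20 ganglion libraries was used as a table of whole-number exonic counts per gene, deposited by the authors and not normalized. HISAT2, Picard and the builds mm10 and mm39 are named in the submitters' processing notes without their roles, and versions are not given in the sources used here. An FPKM table was not used. Symbols came from GENCODE M21 and covered 51487 of 78258 genes and 98.1% of counts. The authors' counts were fitted with edgeR 4.0.16 (R 4.3.3; TMM, filterByExpr with a minimum count of 10 and total of 15, robust quasi-likelihood) as 1 mean per group over all libraries, with Benjamini-Hochberg adjustment over all genes tested. SE is the log2 fold change divided by the root of F. Marker scores are mean log2 CPM with a prior count of 2, compared by exact permutation tests. Both libraries of a mouse are paired by design: their deviations from the group means correlated with a median of 0.308 (-0.16 to 0.668; over 0.1 in 8 of 10 mice), and the fit with mouse as a block is an alternative. Replicate libraries differed by more than sampling noise (chi-square per degree of freedom 5.31 to 58.3 over 40 pairs). In the main fit, p-values measure the spread between libraries within groups, with both libraries of a mouse taken as independent. The edgeR fit was tested on simulated counts. Named genes were a listed set, the called extremes per comparison and family (up to 5 each way), the 3 highest per kilobase of each family and, for pathway lists, up to 2 each way; others are marked in the text. Members, lists and rules were chosen with earlier results of these data known. Alternatives were DESeq2 1.42.0, RLE size factors, other filters, limma 3.58.1 voom, marker scores as covariates, a mouse block, leaving out each mouse, and leaving out 5 libraries, the last chosen after seeing the data.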

Additional observations from a re-analysis of the deposited data

Results flagged for a closer look

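In groups of 5 libraries, 1 library was read as standing apart when its gap to the nearest other library exceeded 0.71 of the group's range (Dixon's 95% value). Of 116 groups looked at, 15 met this, where 1 in 20 would give 5.8 if the groups were independent and normally distributed. They share libraries and hold genes that move together, so 5.8 is not a chance level for them. The contralateral library of control mouse H62 stood high for Fn1 (ratio 0.844), Ibsp (0.881), Itgam (0.797), Col1a1 (0.741) and Col6a5 (0.726), and for the cartilage and bone score (0.794) and the neutrophil score (0.784). The ipsilateral library of control mouse H96 stood high for Col2a1 (0.91), Col1a1 (0.816) and the cartilage and bone score (0.741). The contralateral library of cKO mouse H95 stood high for Col2a1 (0.877) and Ibsp (0.836). Among the injury-responsive integrins and laminins, Itga7 was high in the contralateral library of cKO mouse H99 (0.839), Itgav was high in the ipsilateral library of cKO mouse H64 (0.876), and Lama5 was low in the ipsilateral library of control mouse H65 (0.71).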

How the results depend on the processing

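The count of members called for injury in control stayed within 1.5 times of 19 under every alternative run (16 to 20 over the fits without a mouse). For injury in cKO it was 29, and 19 with no filter (13.1% of all genes), 40 with the macrophage and neutrophil score as a covariate (34.5%), 18 with the tendon, cartilage and bone score (25.5%), and 19 (without H64) to 30 (without H62) over the fits without a mouse. Between genotypes contralaterally it was 0, and 22 with DESeq2, 1 with a mean CPM of at least 1, and 0 to 27 without a mouse (27 without H99, 2 without H61). For the fibroblast slope it was 31, and 17 in the paired fit (mouse as replicate block), 14 without the 5 libraries, and 19 (without H99) to 42 (without H96) without a mouse, against 10.5%, 5.94%, 0.785%, 2.54% and 17.8% of all genes. The paired fit called 22 members in control, all 19 of the main fit with Col18a1, Col4a2 and Itga11. In cKO it called 29, of which 25 were called before. There it lost Col10a1, Col2a1, Col4a5 and Ibsp and gained Col20a1, Col4a3, Col4a6 and Lamb3. Col18a1, Col20a1 and Col4a3 were named after their values were seen. Direction reversed for Col2a1 in cKO with the tendon, cartilage and bone covariate (0.64, adjusted p 0.515) and, without the 5 libraries, for Col4a5 (0.12), Col8a2 (0.038) and Itgb5 (0.053) in cKO. The ipsilateral cartilage and bone score difference between genotypes was 0.023, and the side difference of the fibroblast score -0.014, from log2 summed CPM. Without a mouse, the ipsilateral genotype difference ran from -0.083 to 0.16 for the tendon score and from -0.076 to 0.47 for the neutrophil score, and the side difference of the fibroblast score from -0.091 to 0.13. The cause was not tested for any of these. Of 68 calls of named genes, 32 held under every alternative. Scarce members such as Col7a1, at 5 to 70 counts a library, are limited by depth.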
